A study of Homo sapiens with 2 samples.

Results

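The loci of 8 genes of growth factor signalling, FGFR1, FGFR2, FGFR3, FGFR4, IGF1R, INSR, IRS1 and IRS2, were examined for open chromatin in CAMA-1 cells. The genes were chosen by name, with earlier results of these data known, out of 20033 protein-coding genes on the autosomes and X and Y in GENCODE release 44. A locus was the annotated gene body (hg38) and 50 kb either side. These loci held 354 of the 245736 peaks of replicate 1 and 355 of the 259745 peaks of replicate 2. Peaks of the replicates that overlapped by at least 1 bp were joined into 215195 regions, of which 299 lay in the 8 loci. Of these, 61 lay within 1 kb of an annotated transcription start site (TSS), 41 at a TSS of a chosen gene and 20 at a TSS of another gene.

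CAMA-1 is an established epithelial cell line from a breast adenocarcinoma, grown here in culture without any treatment. Chromatin of 50000 cells per replicate was cut with the Tn5 transposase, which inserts sequencing adapters where DNA is not wrapped in nucleosomes (ATAC-seq). The 2 biological replicates formed a single condition of a single line, so no groups were compared and no test between samples was made. The measure was the peak caller's fold enrichment, the number of reads piled up at a peak over the background of the same library.

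Receptors of fibroblast growth factors (FGFs) and of insulin and insulin-like growth factors (IGFs) are transmembrane tyrosine kinases. Binding of a ligand joins or rearranges the receptor chains, which then phosphorylate each other and dock adaptors. FGF receptors act mainly through FRS2, GRB2 and SHC1 towards RAS and MAP kinase, and IGF1R and INSR act mainly through IRS1 and IRS2 towards PI3 kinase and AKT. Both routes drive the growth of luminal breast epithelium, and their receptor genes are recurrent subjects of study in breast cancer.

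The DNA just upstream of these genes was rich in CpG dinucleotides, the feature of CpG island promoters. The 120 bases before the most 5′ annotated base of 7 of the genes are shown here because they are the promoter DNA of the most 5′ start. The strongest TSS peaks of IGF1R, FGFR4 and IRS1, given below, lay further inside the gene. They were read from RefSeq promoter sequences (GRCh38.p14), in the direction of transcription, with each CpG in capitals.
FGFR2, chr10:121598459-121598578, minus strand: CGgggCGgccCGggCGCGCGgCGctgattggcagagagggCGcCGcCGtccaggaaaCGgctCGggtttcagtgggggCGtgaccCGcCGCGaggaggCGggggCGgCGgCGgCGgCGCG
FGFR3, chr4:1793173-1793292, plus strand: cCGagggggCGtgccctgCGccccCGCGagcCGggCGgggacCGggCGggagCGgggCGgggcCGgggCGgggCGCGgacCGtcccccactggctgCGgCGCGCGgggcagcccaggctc
FGFR4, chr5:177086785-177086904, plus strand: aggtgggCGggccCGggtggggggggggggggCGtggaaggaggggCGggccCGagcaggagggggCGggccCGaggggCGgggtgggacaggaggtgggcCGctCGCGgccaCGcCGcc
IGF1R, chr15:98648419-98648538, plus strand: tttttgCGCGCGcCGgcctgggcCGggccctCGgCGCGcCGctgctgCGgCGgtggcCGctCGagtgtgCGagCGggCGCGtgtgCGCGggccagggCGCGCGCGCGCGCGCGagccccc
INSR, chr19:7294415-7294534, minus strand: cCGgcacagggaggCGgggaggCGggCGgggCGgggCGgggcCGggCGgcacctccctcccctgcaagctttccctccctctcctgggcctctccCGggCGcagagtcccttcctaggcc
IRS1, chr2:226799821-226799940, minus strand: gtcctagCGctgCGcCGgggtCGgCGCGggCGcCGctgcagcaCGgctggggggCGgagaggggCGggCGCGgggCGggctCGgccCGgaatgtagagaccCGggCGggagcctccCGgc
IRS2, chr13:109786584-109786703, minus strand: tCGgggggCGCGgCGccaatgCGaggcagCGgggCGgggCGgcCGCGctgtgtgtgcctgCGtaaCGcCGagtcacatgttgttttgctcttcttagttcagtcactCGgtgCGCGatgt

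These stretches held from 10 CpGs at INSR to 27 at IGF1R, with 23 at FGFR2, 20 at FGFR3, 19 at IRS1, 16 at IRS2 and 13 at FGFR4. The median over all 35116 promoters in the RefSeq collection used was 6 CpGs in the same 120 bases, with quartiles of 1 and 12. All 7 genes lay above that median, and INSR alone was within the quartiles. Over the 500 bp centred on the canonical TSS (the start of the transcript that Ensembl marks as representative), the GC content of all 8 genes ran from 72.5% at FGFR1 to 84.2% at FGFR3. The median over all genes was 64.7%.

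Regions away from any TSS were the strongest of some of these loci. The central 200 bp of 7 such regions are shown, because each is the strongest or second strongest such region of its locus. At FGFR2 and FGFR3 the second strongest is shown for its motif match, and the strongest held none. They are given on the plus strand of hg38, read from the genome sequence, and none overlaps an annotated exon. Capitals mark a match to a motif, namely the AP-2 motif at FGFR2 and IRS1, the CTCF motif at the FGFR3 region and the TEAD motif at the FGFR4 region. The regions of IGF1R, INSR and IRS2 held none of the 9 motifs searched in these 200 bp.
FGFR2 upstream region, chr10:121608733-121608932: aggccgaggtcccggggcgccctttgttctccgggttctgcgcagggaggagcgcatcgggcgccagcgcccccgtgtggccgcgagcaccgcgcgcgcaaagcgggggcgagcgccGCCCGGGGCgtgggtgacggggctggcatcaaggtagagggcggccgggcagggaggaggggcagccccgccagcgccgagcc
FGFR3 downstream region, chr4:1810279-1810478: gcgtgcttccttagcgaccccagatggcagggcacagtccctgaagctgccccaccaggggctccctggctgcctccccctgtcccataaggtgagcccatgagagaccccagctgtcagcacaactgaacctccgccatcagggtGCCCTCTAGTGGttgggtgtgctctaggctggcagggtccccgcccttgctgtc
FGFR4 downstream region, chr5:177109927-177110126: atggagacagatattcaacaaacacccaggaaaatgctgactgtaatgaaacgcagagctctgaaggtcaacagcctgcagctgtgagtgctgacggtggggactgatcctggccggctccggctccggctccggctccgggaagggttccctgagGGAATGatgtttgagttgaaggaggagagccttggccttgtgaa
IGF1R intron 2 region, chr15:98851132-98851331: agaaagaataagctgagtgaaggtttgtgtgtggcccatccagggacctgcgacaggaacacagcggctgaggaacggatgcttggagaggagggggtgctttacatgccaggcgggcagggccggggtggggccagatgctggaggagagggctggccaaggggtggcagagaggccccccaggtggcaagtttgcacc
INSR intron 2 region, chr19:7197776-7197975: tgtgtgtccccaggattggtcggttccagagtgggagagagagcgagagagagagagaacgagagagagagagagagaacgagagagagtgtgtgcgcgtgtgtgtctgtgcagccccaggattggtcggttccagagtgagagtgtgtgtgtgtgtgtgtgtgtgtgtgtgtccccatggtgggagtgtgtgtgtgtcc
IRS1 intron 1 region, chr2:226791455-226791654: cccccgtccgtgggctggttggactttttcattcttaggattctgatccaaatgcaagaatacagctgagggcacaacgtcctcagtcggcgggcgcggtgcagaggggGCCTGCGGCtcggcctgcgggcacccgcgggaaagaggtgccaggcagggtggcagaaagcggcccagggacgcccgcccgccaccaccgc
IRS2 downstream region, chr13:109744274-109744473: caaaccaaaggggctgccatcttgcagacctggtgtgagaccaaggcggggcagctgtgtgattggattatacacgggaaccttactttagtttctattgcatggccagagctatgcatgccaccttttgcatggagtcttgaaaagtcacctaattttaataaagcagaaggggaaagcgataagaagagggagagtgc

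The stretch in INSR is largely made of short repeats of GA and GT. The stretch upstream of FGFR2 held 28 CpGs in 200 bp and that in intron 1 of IRS1 held 17, while those at FGFR4, FGFR3, IGF1R and IRS2 held from 3 to 7. A motif match describes letters in the sequence and is not evidence of a bound factor.

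The depth of the libraries is not in the peak lists. The median peak height was 35 reads in each, the median peak width was 297 bp in replicate 1 and 300 bp in replicate 2, and the lowest −log10 q of a listed peak was 2.24 and 2.07, respectively. Signal under the threshold of the peak caller was not seen. The fold enrichment of replicate 1 moved in steps of 0.2301 and that of replicate 2 in steps of 0.221, from which the background of 3.35 and 3.52 reads and the height of every peak followed. The 95% intervals given for heights and shares (exact Poisson and Wilson) cover counting error only. The labelled cell type was checked by its markers. All 8 luminal epithelial markers had a TSS peak in both replicates, beside 79.3% of all protein-coding genes. Their mean fold enrichments ran from 31.9 (ESR1) to 143 (KRT8). Of the blood markers, PTPRC, CD3E and SPI1 had none in either replicate, while CD14 had one in both, with a mean of 50.2. All 3 mesenchymal markers had one in both, with means from 11.6 (TWIST1) to 65.9 (PDGFRB). CD14 and PDGFRB thus exceeded the luminal markers ESR1 and GATA3 (49.1), while the other luminal markers exceeded both. Copy number was not analysed, and more copies of a locus cannot be told apart from more open chromatin in any value below.

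All 8 genes had a peak within 1 kb of an annotated TSS in both replicates. The same held for 79.3% of all protein-coding genes (15890 of 20033, Wilson interval 78.8% to 79.9%), so a TSS peak is common among genes at large. At the canonical TSS alone, all 8 again had a peak in both replicates, beside 73.5% of all protein-coding genes.

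The strength of the TSS peaks set the FGF receptors apart from each other. The strongest TSS peak of FGFR1 reached a fold enrichment of 178 in replicate 1 and 190 in replicate 2 (184 ± 7.91, SD, n = 2). That of FGFR4 reached 138 and 147 (142 ± 6.37, SD, n = 2). FGFR2 followed with 94.1 and 100 (97.1 ± 4.29, SD, n = 2). FGFR3 was far lower, at 29.2 and 29.6 (29.4 ± 0.289, SD, n = 2). The replicates of these 4 receptors did not overlap at any step of this order. Among the 15890 genes with such a peak, FGFR1 stood at the percentile 98.5, FGFR4 at 94.9, FGFR2 at 82.5 and FGFR3 at 26.1, where the median gene had 52.6 with quartiles of 28.3 and 83.4.

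Among the genes of the insulin and IGF branch, the adaptor gene IRS2 was highest, at 75.01 and 78.5 (76.8 ± 2.47, SD, n = 2). INSR reached 43.7 and 45.1 (44.4 ± 0.984, SD, n = 2), and IRS1 47.4 and 38.9 (43.2 ± 6.0, SD, n = 2). IGF1R had the lowest mean of the 8 genes, at 26.9 and 29.6 (28.3 ± 1.92, SD, n = 2). The values of INSR and IRS1 overlapped, as did those of FGFR3 and IGF1R, so neither pair could be put in order. With TSS peaks taken within 3 kb, the mean of IGF1R was 36.8 and that of FGFR3 29.4. IRS2 stood at the percentile 70.6, INSR at 42.1, IRS1 at 40.9 and IGF1R at 24.99. The heights behind these values were 325 and 354 reads at IRS2, and 116 (95.9 to 139) and 133 (111 to 158) at IGF1R.

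The choice of TSS mattered for 3 of the 8 genes. At the canonical TSS, IRS1 had 18.6 in both replicates (18.6 ± 0.0444, SD, n = 2), since its strongest TSS peak lay within 1 kb of the inner of its 2 annotated starts. With TSS peaks held to 100 bp, IRS1 also had a mean of 18.6. IGF1R had 20.7 and 15.5 (18.1 ± 3.70, SD, n = 2), and FGFR4 had 102 and 94.4 (98.4 ± 5.64, SD, n = 2). The canonical values of the other 5 genes were those given above. On this measure FGFR4 overlapped FGFR2 and IRS1 overlapped IGF1R. IRS1 and IGF1R lay at the percentiles 18.0 and 17.5 of 14727 genes, below the lower quartile of 26.0, although IGF1R carried the most CpGs of the 7 promoters shown.

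**Figure D1:**
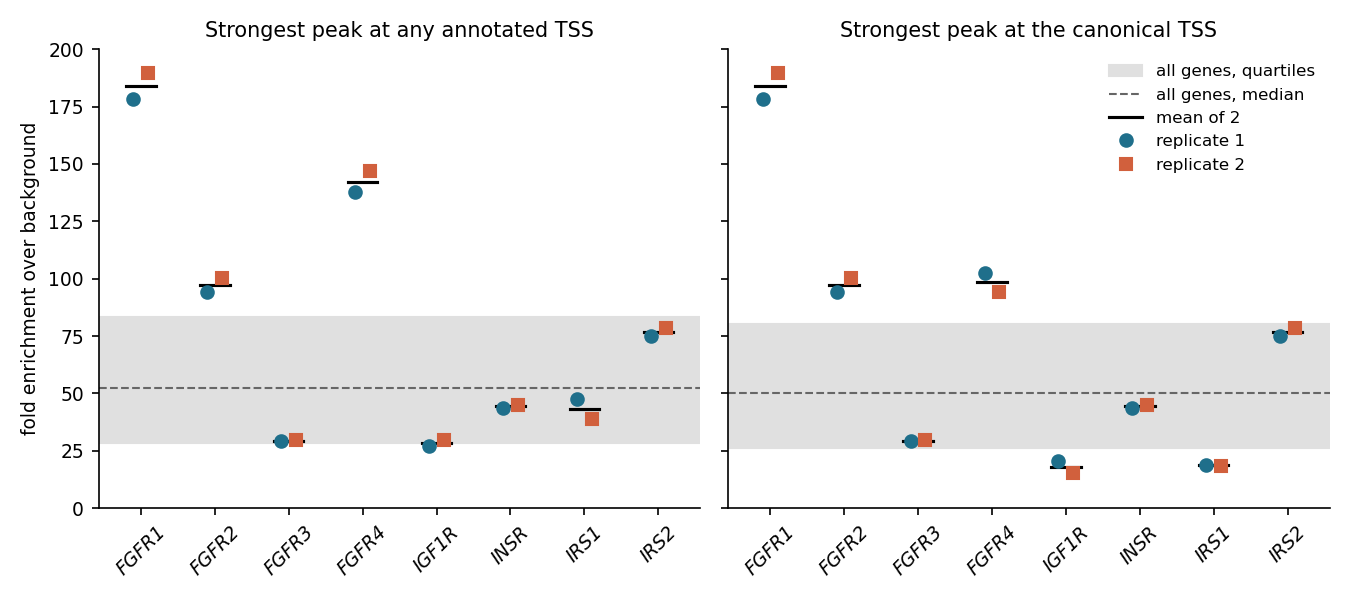
Fold enrichment (y axis) of the strongest peak within 1 kb of any annotated TSS (left) and of the canonical TSS (right) for the 8 genes (x axis), with replicates as points, their mean as a bar and the quartiles and median of all genes in grey. FGFR1 was highest at 178 and 190 in both panels, and IRS1 fell from 47.4 and 38.9 on the left to 18.6 in both replicates on the right.

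The number of regions differed by locus. FGFR3 and FGFR1 were the most crowded, with 43.3 and 39.7 regions per 100 kb (50 and 67 regions), and FGFR4 held 27.9 per 100 kb (31 regions). The other loci were close to the median of all protein-coding windows, 11.4 per 100 kb with quartiles of 5.95 and 19.5. They held 15.7 at IRS2 (21 regions), 13.9 at IGF1R (58), 11.7 at INSR (33), 10.1 at IRS1 (17) and 9.99 at FGFR2 (22). FGFR3 stood at the percentile 99.4 of all windows, FGFR1 at 98.6 and FGFR4 at 90.8, and the other 5 between 44.6 and 64.7.

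The share of the gene body under a peak gave another order. Peaks covered 93.3% of FGFR4 in replicate 1 and 90.2% in replicate 2 (91.8% ± 2.2, SD, n = 2). FGFR1 was covered at 38.2% and 36.6% (37.4% ± 1.14, SD, n = 2). FGFR3 was covered at 21.0% and 24.9%, and IRS2 at 15.1% and 18.0%. The other 4 genes lay between 5.86% and 8.54% in both replicates, near the median of 5.34% over all genes. These shares are of genes of very unequal length, from 11.2 kb (FGFR4) to 316 kb (IGF1R).

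**Figure D2:**
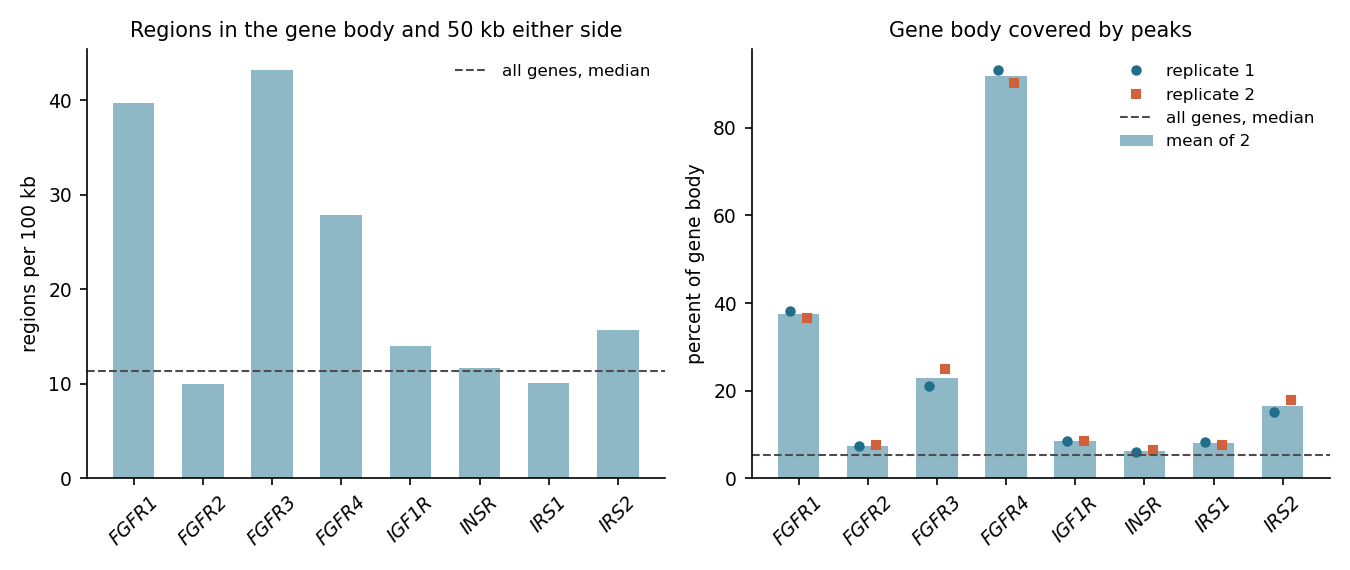
Regions called in both replicates per 100 kb of locus (left) and percent of the gene body under peaks (right, bar for the mean and points for the replicates), with the median of all protein-coding genes as a dashed line. FGFR3, FGFR1 and FGFR4 rose above the line on the left at 43.3, 39.7 and 27.9, and FGFR4 stood out on the right at 93.3% and 90.2%.

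The typical strength of a region was less varied than these counts. The median fold enrichment per locus was 13.3 and 13.0 in the replicates at FGFR4, 12.2 and 11.4 at IGF1R, 11.5 and 9.73 at INSR, and 10.0 and 10.5 at FGFR2. It was 8.97 and 10.8 at IRS1, 10.1 and 9.07 at FGFR1, 8.74 and 8.73 at FGFR3, and 7.36 and 7.96 at IRS2. The median over the windows of all genes with at least 5 regions was 10.9, with quartiles of 8.79 and 14.2. Only FGFR3 and IRS2 lay below the lower quartile, and none of the 8 above the upper one. These medians depend on what is counted. The median of FGFR1, 9.60 over both replicates, was 17.4 over its gene body alone and 15.8 when peaks needed a −log10 q of 10 or more. With that threshold the median of FGFR3 rose from 8.74 to 13.7 and that of IRS2 from 7.66 to 12.9. The median of FGFR4, 13.2 over both replicates, fell to 8.28 over all peaks of replicate 1, found again or not. Over all peaks of replicate 2 it was 10.4.

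FGFR1 (ENSG00000077782, chromosome 8, 38400215 to 38468834, minus strand) encodes a receptor for many FGFs. Its locus held 67 regions, 12 of them at its own TSSs, and 42 of its 47 annotated start positions had a peak within 1 kb in both replicates. The canonical TSS lay under a region of 2460 bp. Several starts of shorter transcripts were also strong, with 99.9 and 86.5 in intron 2 and 112 and 109 near the 3′ end of the gene, the latter also within 1 kb of a start of LETM2. Intron 2 held 14 regions, with the strongest region of the locus away from any TSS at 18.1 kb from the canonical TSS, at 167 and 190 (179 ± 16.3, SD, n = 2). Its central 200 bp held a CTCF match. The next was upstream at −41.9 kb, at 121 and 132, with a GATA match. The strongest peak of the whole locus, 215 and 218, lay at a TSS of the neighbouring gene NSD3, which encodes a histone methyltransferase.

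FGFR4 (ENSG00000160867, chromosome 5, 177086905 to 177098144, plus strand) encodes a receptor with a preference for FGFs that act with klotho proteins, such as FGF19. Most of the gene lay under peaks, with gaps between them. A region of 7629 bp, called as 1 peak in replicate 1 and as 3 in replicate 2, spanned most of the gene, with 138 and 147, and one of 9660 bp ran from near its 3′ end to beyond it, with 128 and 125. The median width of all regions was 363 bp. The strongest region of the locus lay downstream at 23.1 kb and had 214 and 211 (212 ± 1.82, SD, n = 2), above both TSS values of the gene. It held the TEAD match shown above, and both its replicates exceeded both replicates of every other region in the 8 loci but that of NSD3. The next away from a TSS lay upstream at −14.7 kb, with 122 in both replicates, and held a TEAD match too. In all, 3 of 25 regions away from a TSS exceeded the canonical TSS of FGFR4 by their mean.

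FGFR2 (ENSG00000066468, chromosome 10, 121478332 to 121598458, minus strand) encodes an epithelial receptor whose splice forms differ in their ligands. Its locus had few regions, and its canonical TSS held the strongest of all 22, with 94.1 and 100. None of the 17 regions away from a TSS reached that level. The strongest of them lay in intron 2 at 17.6 kb, with 37.0 and 36.3, and the next, the CpG-rich stretch shown above, at −10.4 kb with 28.8 and 33.2. An inner start in intron 4, at 44.6 kb, had 45.1 and 49.3. Of the 36 annotated start positions, 14 had a peak within 1 kb in both replicates.

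FGFR3 (ENSG00000068078, chromosome 4, 1793293 to 1808872, plus strand) encodes a receptor best known for restraining the growth of cartilage. By their midpoints, 32 of its 50 regions lay upstream and 12 downstream of a gene of 15.6 kb, which is short beside its flanks. The 32 upstream regions had a median fold enrichment of 8.10 and none exceeded 42.3 (mean of 2). The strongest region away from a TSS lay downstream at 59.4 kb, with 119 and 134, close to the strongest peak of the locus, 131 and 136 at a TSS of LETM1, which encodes a mitochondrial protein. The CTCF match shown above lay at 17.1 kb, downstream of the gene, in a region with 50.4 and 46.2. In all, 6 of 42 regions away from a TSS exceeded the canonical TSS of FGFR3.

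**Figure D3:**
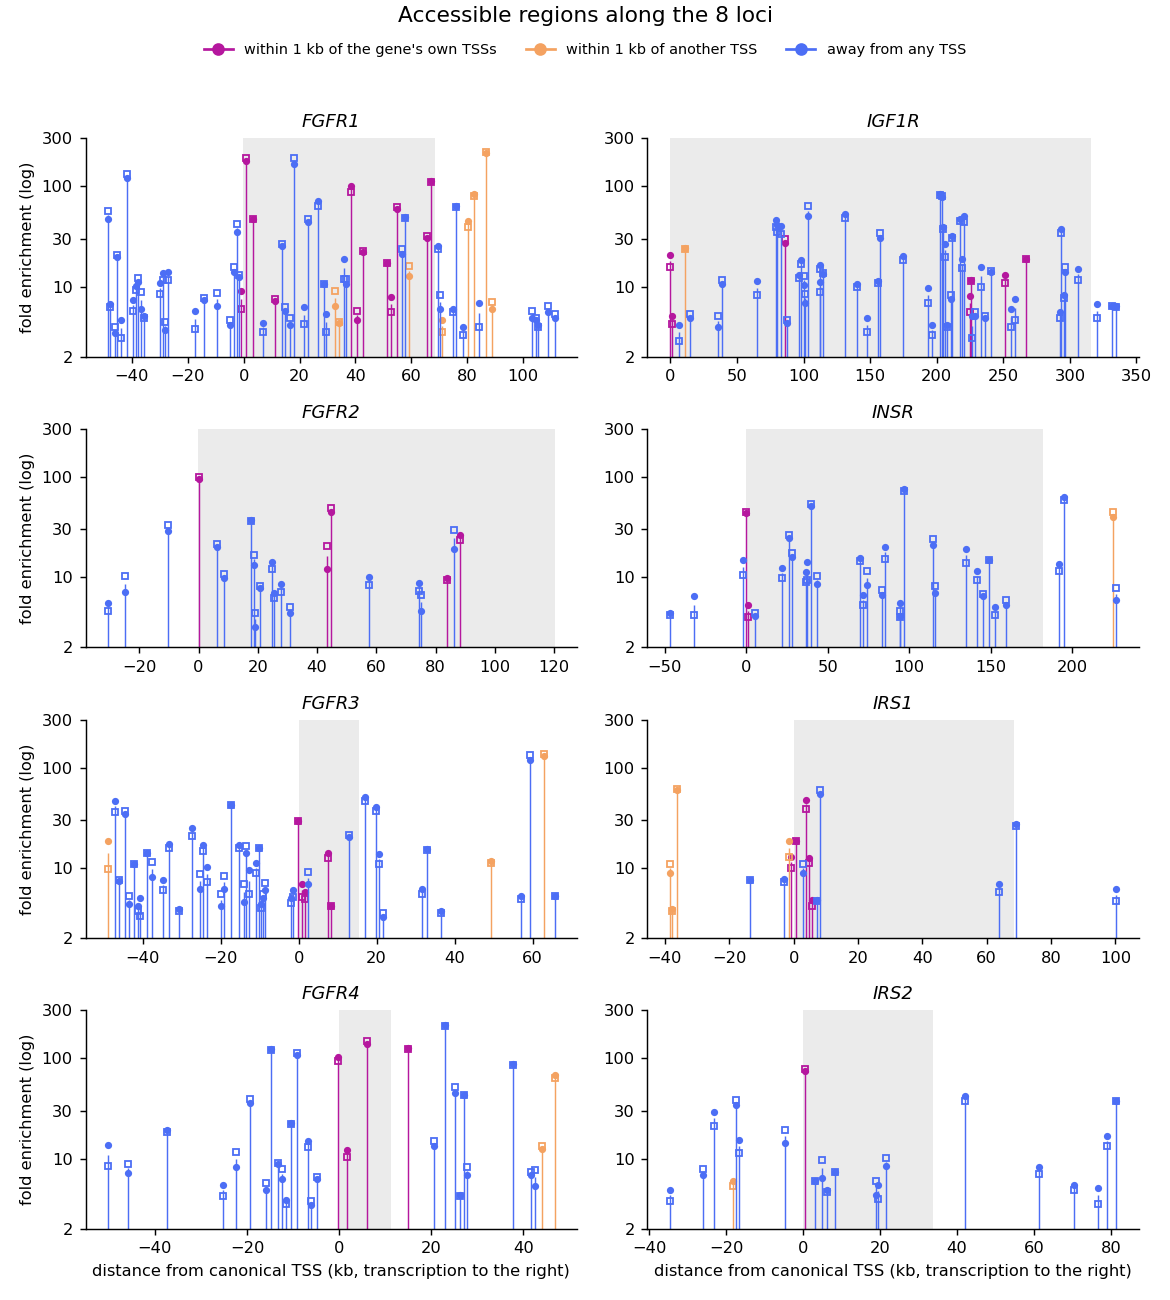
Fold enrichment (y axis, log scale) of each of the 299 regions against the distance of its midpoint from the canonical TSS in kb (x axis, transcription to the right), with filled circles for replicate 1, open squares for replicate 2, lines to the mean of 2 and the gene body shaded. FGFR2 and IRS2 peaked at their own TSS, while IGF1R peaked inside intron 2, at 203 kb, with 83.8 and 81.4.

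IGF1R (ENSG00000140443, chromosome 15, 98648539 to 98964530, plus strand) encodes the receptor for IGF1 and IGF2. Its accessible regions lay mostly inside the gene, with 39 of 58 in intron 2. The 2 strongest lay in intron 2 at 203 kb, with 83.8 and 81.4 (82.6 ± 1.68, SD, n = 2), and at 204 kb, with 78.2 and 80.0. Neither held a motif match. The canonical TSS had 20.7 and 15.5, and 15 of the 50 regions away from a TSS exceeded it by their mean, 14 of them in intron 2. An inner start at 86.0 kb was the strongest of its TSS peaks, with 26.9 and 29.6. Of the 16 annotated starts, 6 had a peak within 1 kb in both replicates.

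INSR (ENSG00000171105, chromosome 19, 7112255 to 7294414, minus strand) encodes the insulin receptor. It had a single strong TSS region, with 43.7 and 45.1, and 3 of 30 regions away from a TSS exceeded it. The strongest of these was the repeat-rich stretch in intron 2 shown above, 96.5 kb from the TSS, with 76.4 and 71.6 (74.0 ± 3.36, SD, n = 2). The next lay downstream of the gene at 195 kb, with 63.5 and 59.3. INSR and IGF1R encode closely related receptors, and in both genes the strongest region lay in intron 2 and above every TSS peak of the gene in both replicates.

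IRS1 (ENSG00000169047, chromosome 2, 226731312 to 226799820, minus strand) encodes an adaptor that is phosphorylated by IGF1R and INSR and recruits PI3 kinase. Its 17 regions were the fewest of the 8 loci, and only 8 lay away from a TSS. The region of the canonical TSS had 18.6 in both replicates, and one within exon 1, centred at 3.72 kb and within 1 kb of the inner start, had 47.4 and 38.9. The strongest region away from a TSS lay at 8.27 kb in intron 1, with 54.3 and 59.9 (57.1 ± 3.98, SD, n = 2), and the next downstream at 69.1 kb, with 27.6 and 25.9. Both held an AP-2 match, and both had more than the canonical TSS. The strongest peak of the locus, 59.6 and 61.3, lay at a TSS of RHBDD1, which encodes a protease of the rhomboid family, and its first replicate overlapped the range of the region in intron 1.

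IRS2 (ENSG00000185950, chromosome 13, 109752695 to 109786583, minus strand) encodes the other adaptor of this family that is widely expressed. It has a single annotated start, under a region of 3944 bp with 75.01 and 78.5, and none of its 19 regions away from a TSS reached that level. The strongest were downstream at 42.2 kb, with 41.6 and 37.1, and at 81.5 kb, with 37.3 and 37.6, and their values overlapped. The adaptor genes thus differed in form, with the peak at the canonical TSS of IRS2 higher than that of IRS1 in both replicates and no overlap between them.

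TSS regions were stronger than other regions in these loci, as in the genome at large. Their median fold enrichment was 18.4 in replicate 1 and 16.1 in replicate 2 over 61 regions, beside 8.86 and 8.96 over the 238 other regions. The ratio was 2.08 and 1.80 (1.94 ± 0.195, SD, n = 2), and over all regions 1.82 and 1.79 (1.80 ± 0.0246, SD, n = 2). The share of regions within 1 kb of a TSS was 20.4% in the loci and 19.9% in all. Of the 238 other regions, 106 lay in introns within the chosen gene bodies, 15 in exons and 117 in the flanks outside those exons. The exons included some in the flanks, outside the chosen genes. All 5 such regions at FGFR4 lay upstream of that gene, and others lay downstream of FGFR1 and FGFR3.

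The replicates were close throughout these loci. Of the peaks of replicate 1 in the loci, 310 of 354 (87.6%, Wilson interval 83.7% to 90.6%) overlapped a peak of replicate 2, beside 90.2% of all its peaks. In the other direction the figures were 312 of 355 (87.9%, 84.1% to 90.9%) and 84.7%. The Poisson intervals of the 2 replicates did not overlap at 3 of the 299 regions (1.00%), beside 0.831% of all regions. Those were a region in intron 9 of FGFR2 (19.1 and 29.9), an inner start of FGFR2 at 43.3 kb (12.2 and 20.6) and a TSS of TACC3 upstream of FGFR3 (18.4 and 9.73).

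Motifs of factors known in breast epithelium were searched on both strands in the central 200 bp of each region. The letters were TGANTCA for AP-1, TGTTTAC for forkhead, AGATAA for the GATA motif, AACNNGTT for grainyhead, GGAATG for TEAD, CCGGAAGT for ETS and GCCNNNGGC for AP-2. The full estrogen response element (GGTCA, then 3 bases of any kind, then TGACC) and the CTCF motif were searched as well. The TEAD and ETS strings share the letters GGAA, and no string contains another whole. Away from a TSS, a TEAD match was present in 28 of 238 regions (11.8%, Wilson interval 8.27% to 16.5%), beside 14.4% of all such regions. AP-2 matched 11.3% (7.91% to 16.0%) beside 10.2%, AP-1 8.40% (5.51% to 12.6%) beside 10.97%, and forkhead 7.14% (4.51% to 11.1%) beside 6.22%. GATA matched 15 regions, or 6.30% (3.86% to 10.1%), beside 10.3% of all regions, just beyond the interval. The GATA share was 8.10% with 100 kb either side, 5.88% under a reciprocal overlap of 50% and 5.36% in gene bodies alone. No difference is drawn from 1 such interval among the 9 motifs. Within 1 kb of a TSS, where the loci held 61 regions, the intervals of all 9 motifs held the share of all regions, as for GATA at 9.84% (4.59% to 19.8%) beside 5.69% and grainyhead at 6.56% (2.58% to 15.7%) beside 3.02%.

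Counts per locus ran from 0 to 8. Of the 15 GATA matches, 5 lay at FGFR1, 3 at IGF1R and 3 at INSR, and none at FGFR2, FGFR3 or IRS1. Forkhead matched 7 of the 50 regions at IGF1R and 3 of the 17 at FGFR2. AP-1 matched none of the 47 regions at FGFR1 and 3 of the 8 at IRS1, and AP-2 matched 8 of the 42 at FGFR3 and none at FGFR1. The estrogen response element in its full form was found in 0 of the 238 regions (Wilson interval up to 1.59%), and in 0.0743% of all such regions. These counts are small, and no order of the loci was drawn from them.

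**Figure D4:**
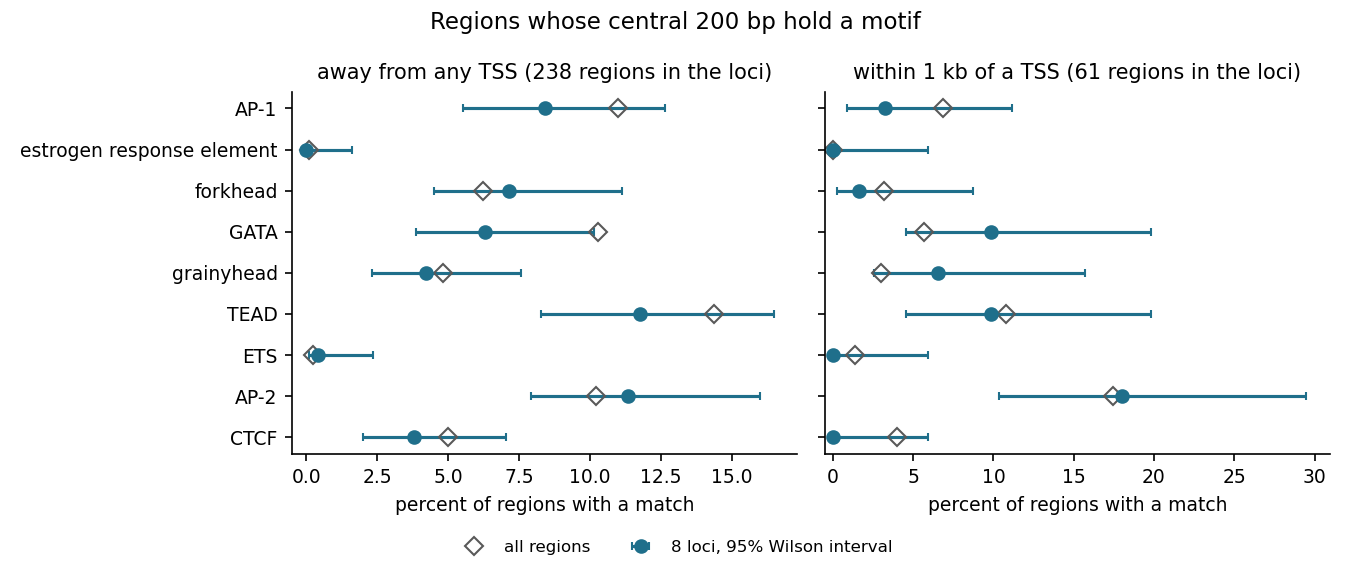
Percent of regions (x axis) whose central 200 bp held each of 9 motifs (y axis), away from any TSS (left, 238 regions in the loci) and within 1 kb of one (right, 61 regions), with 95% Wilson intervals for the loci and diamonds for all regions. The intervals held the diamonds for all motifs but GATA away from a TSS (6.30%, up to 10.1%, beside 10.3%).

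Genes that work with these receptors were taken as a list of 59 in 6 roles. Of them, 49 (83.1%) had a TSS peak in both replicates, beside the 79.3% of all protein-coding genes given above. Their median fold enrichment was 43.5, below the 52.6 of all genes with such a peak. FGF21 had a peak in replicate 1 alone.

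All adaptors and inhibitors of the list had a TSS peak in both replicates, while the ligands, co-receptors and binding proteins each had members without one, apart from the IGF and insulin ligands. Among FGF ligands 11 of 18 had a TSS peak in both replicates, led by FGF18 (74.6 and 72.8) and FGF9 (69.3 and 75.8). FGF2, FGF6, FGF10, FGF16, FGF17 and FGF20 had none in either replicate. IGF1 had 49.9 and 49.8, IGF2 had 11.97 and 15.9, and the insulin gene INS had 8.51 and 6.19. At the canonical TSS, IGF1 had no peak in either replicate and IGF2 had 4.83 and 5.53. Of the co-receptors and related receptors, FGFRL1, a receptor without a kinase, had 42.8 and 47.5 and INSRR, an orphan relative of INSR, had 20.5 and 17.9. The klotho genes KL and KLB, whose products let FGF receptors bind endocrine FGFs, had none in either replicate.

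Of the binding proteins, 6 of 7 had a TSS peak in both replicates, led by IGFBP5 (72.2 and 71.4) and IGFBP3 (37.7 and 49.3), which sequester IGFs, and IGFBP1 had none in either replicate. All 13 adaptors and effectors had one in both. At any annotated TSS, SHC1 reached 260 and 232 and GRB2 172 and 161, above every other gene of the list in both replicates. At the canonical TSS SHC1 had 135 and 126, which overlapped the values of DUSP6, and GRB2 had 38.7 and 40.02. All 13 inhibitors had one in both as well, led by DUSP6, a phosphatase of MAP kinase, with 125 and 130, and SPRED2, which restrains RAF, with 88.6 and 93.5. At its canonical TSS SPRED2 had 45.8 and 50.2, below SOCS3 (86.3 and 88.2) and SOCS1 (78.5 and 83.4).

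**Figure D5:**
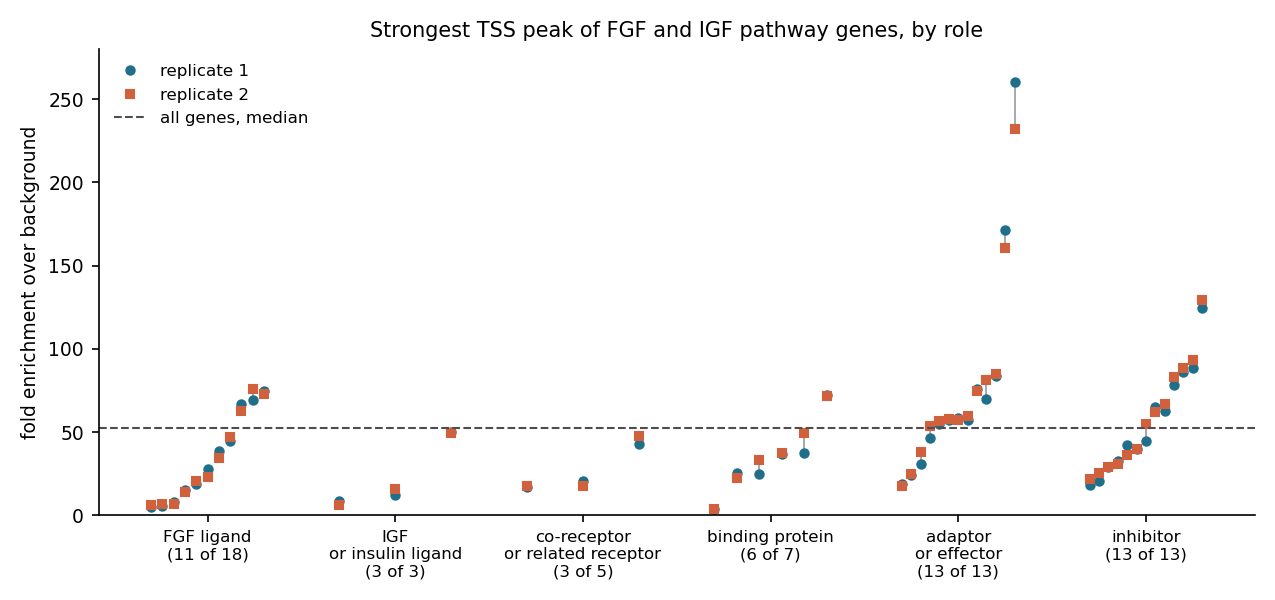
Fold enrichment (y axis) of the strongest TSS peak of the 49 pathway genes with one in both replicates, by role (x axis, with the number of genes that had one), as points per replicate joined by a line, beside the median of all genes. SHC1 stood highest at 260 and 232, and all IGF and insulin ligands and related receptors lay under the dashed line at 52.6.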

How the data were processed

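ATAC-seq libraries of 2 CAMA-1 replicates were analysed from the peak lists that the authors deposited, one per replicate, called without pooling. According to the methods and the submitters' processing notes, reads were trimmed (Trim Galore 0.6.5), aligned to hg38 (Bowtie2 2.3.5.1) and peaks were called with MACS2 2.2.6. Peak calling settings, the treatment of duplicates and any shift for the cut of Tn5 are not given in the sources used here. The authors deposited a score per peak, 10 times the −log10 q, with the fold enrichment as a ratio over background. They also deposited −log10 p and −log10 q. The ratio was used here, and −log10 q served only as a threshold. Depth is not in the peak lists, and they give no summits, so midpoints were used.

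Fold enrichment was taken as (height + 1) / (background + 1). A region took the strongest peak of each replicate. Genes, exons and TSSs came from GENCODE release 44, and promoters from RefSeq (GRCh38.p14), where 7 genes were looked up and matched. FGFR1 was left out of the sequences shown. Percentiles among genes describe and are no test. The members, lists and motifs were chosen with earlier results of these data known. Named are the 8 genes, in each locus the 2 strongest regions away from a TSS, and a neighbouring gene where its TSS carried the strongest peak of the locus. From the pathway list, the 2 genes with the highest TSS value in each role and those without a TSS peak in either replicate are named. FGF21, LETM2, TACC3, INS, SOCS1 and SOCS3, the inner starts and the regions with replicates apart were named after their values were seen. The alternatives kept peaks from a −log10 q of 10 upwards, or used a reciprocal overlap of 50%, TSS peaks within 100 bp or 3 kb, a single TSS per gene, the gene body alone or with 100 kb, each replicate alone, the central 100 bp for motifs and, added after the data were seen, the canonical TSS. A blood marker and the other FGFR4 region are not reported here. Overlaps, peak heights, distances to TSSs and the search for the GATA motif were tested on simulated data, and percentiles were not. Python 3.11.15, numpy 2.4.6, pandas 2.3.3, scipy 1.17.1, pysam 0.24.0 and matplotlib 3.10.9 were used.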

Additional observations from a re-analysis of the deposited data

How the results depend on the processing

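All 8 genes kept a TSS peak under every alternative run for that count, in both replicates or, where 1 replicate was left out, in the other. Between 47 and 52 of the 59 pathway genes had one on the same terms, beside 49 in the report. Of 228 alternative values, 157 stayed the same and 71 moved. A value stayed if it lay within the replicate spread or, for a count, within 1.5 times. Motif shares stayed if they lay within the Wilson interval of the share in the report. Reversals were not scored. The median of the 8 loci's median fold enrichments, 10.1, became 13.6 when peaks needed a −log10 q of 10 or more, 10.2 under 50% reciprocal overlap, 10.5 in gene bodies alone, 9.93 with 100 kb either side, and 8.63 to 8.79 from 1 replicate alone. The ratio of TSS to other regions, 1.94, became 1.74 with the stricter q, 2.71 with TSS peaks within 100 bp, 1.35 within 3 kb, 2.45 with a single TSS per gene, 2.25 with 100 kb either side, and 1.66 to 1.81 from 1 replicate alone. The share of peaks found again, 87.7%, became 91.5% with the stricter q, 79.0% with the reciprocal overlap and 87.4% with 100 kb either side. The median TSS percentile of the 8 genes, 56.3, became 55.0 within 100 bp, 59.5 with a single TSS per gene, 58.8 at the canonical TSS (chosen after the data were seen), and 57.2 to 58.3 from 1 replicate alone. Gene bodies alone held 155 regions in place of 299. The share of regions with an AP-1 match fell from 8.40% to 3.78% in the central 100 bp, where fewer bases were searched. For the other changes the cause was not tested.

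No paired analysis was possible because there was 1 condition with 2 libraries and hence nothing to pair. An SD rests on 2 values. Heights of at least 11 reads passed the peak caller, so weaker sites were not seen, and the precision of a value follows from its height. Midpoints stood in for summits, so a motif may lie outside the 200 bp searched, most of all in wide regions such as those of FGFR4.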

Other observations

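Peaks called in 1 replicate alone reached at most 7.82 in any of the 8 loci. In replicate 1, 12 of the 73 peaks at IGF1R and 11 of the 81 at FGFR1 had no overlapping peak in replicate 2, and the highest of them had fold enrichments of 7.82 and 5.52. In replicate 2, 12 of 73 at IGF1R and 10 of 82 at FGFR1 had none in replicate 1, with highest values of 5.75 and 5.53. At FGFR2 this held for 2 of 24 peaks of replicate 1, the higher at 3.91, and for 0 of 22 of replicate 2.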
